A study of Mus musculus with 4 samples.

Results

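The collagen genes that lie outside the core of the epidermal basement membrane were read in basal cells sorted from mouse tail epidermis. They were found by name, as every probe set whose 1 platform symbol has the form Col, digits, a, digits, with Col4a1, Col4a2, Col7a1 and Col17a1 left out. This gave 38 of the 18193 genes with a probe set of their own, and 77 of 45037 probe sets. Of the 38 genes, 26 had more than 1 probe set. No measured value entered the choice. The name does not hold for every member, because Col4a3 to Col4a6 and the multiplexins Col15a1 and Col18a1 also encode basement membrane proteins.

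The series holds 4 expression arrays of CD-1 mice, all with a YFP reporter at the Rosa locus that Cre recombinase switches on. In 2 samples a tamoxifen-inducible Cre was driven by the keratin 14 promoter, which is active in basal cells (K14CREER/RosaYFP, induced with 1 ug tamoxifen). In the other 2 it was driven by the involucrin promoter, which is mainly active in differentiating cells (InvCREER/RosaYFP, induced with 10 ug). Dose and Cre line therefore cannot be told apart. The titles give 3.5 days after induction and the protocol 4 days. Living YFP-positive cells with high alpha6 integrin and no CD34 at the surface were sorted as basal cells of the interfollicular epidermis. Neither the age of the mice nor separate mice behind the 2 arrays of a line are stated. P-values therefore reflect array-to-array spread, possibly of technical origin only. Values are log2 RMA values, and a difference is InvCREER minus K14CREER in log2 units with its moderated standard error (SE). Of several probe sets of a gene, that of highest mean stands for it. A value of 5.42, the median over probe sets, served as the filter for testing.

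Collagens are trimers wound into a triple helix of glycine-rich repeats. Fibrillar collagens form the tensile fibres of the dermis and are made mainly by fibroblasts. Fibril-associated collagens with interrupted helices (FACIT) decorate those fibres, collagen VI forms beaded microfilaments, network collagens form sheets, and multiplexins and transmembrane collagens lie at basement membranes and cell surfaces. Keratinocytes make the collagens that anchor them to the basement membrane, whereas fibrillar collagens mark the dermis beneath.

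The sorted cells carried a keratinocyte profile, with Krt14 between 13.82 and 14.17 and Itga6 between 11.62 and 12.41 on the 4 arrays. The profile differed between the lines. All 6 basal keratinocyte markers were lower in InvCREER without overlap, against 24.1% of all genes past the filter. Their median difference was -0.60. Of these 6, limma called 1, Krt15, which fell by 1.38 (limma adjusted p = 0.0212), where 0.275% of all tested probe sets were called lower. Of 6 suprabasal markers, limma called 3 higher, against 154 of all 22519 tested probe sets. These were Krt1 (1.29, limma adjusted p = 0.0248), Krt10 (0.71, limma adjusted p = 0.0211) and Dsg1a (1.29, limma adjusted p = 0.0490). Lor (0.61, limma adjusted p = 0.655), Flg (0.06) and Ivl overlapped between the lines. Ivl, the involucrin gene, was 4.58 and 6.23 in K14CREER against 4.78 and 5.06 in InvCREER (-0.49). Ivl and Flg lay under the filter and were not tested. The endothelial, skeletal muscle, adipocyte and dermal papilla marker lists had means of 4.14 to 5.00 on every array. Of 14 dermal fibroblast markers, 11 were highest on K14CREER 1, against 27.4% of all genes. Of the 14, 8 lay under the filter value, among them the defining markers Pdgfra, Dpt and Lum. Dcn and Thy1 were well above it and lower in InvCREER without overlap, Dcn at 9.50 and 9.07 against 7.09 and 7.75 and Thy1 at 9.18 and 7.80 against 6.64 and 6.71 (-1.81, limma adjusted p = 0.131). The mean of the 14 fibroblast markers was 5.95 on K14CREER 1, 5.46 on K14CREER 2, 5.33 on InvCREER 1 and 5.31 on InvCREER 2. Their median varied less, at 5.12, 5.07, 4.94 and 4.87 in the same order. Cd34, which the sort should exclude, was 6.07 on K14CREER 1 but 3.59 to 3.88 on the 3 others. Among the fibroblast markers, Fn1 (1.81), Thy1 (1.38) and Vim (1.28) were furthest above K14CREER 2 on K14CREER 1. Vim was also high on InvCREER 1, at 7.45 against 7.63 on K14CREER 1. K14CREER 1 thus stood apart for Cd34 and, by the mean but not by the median, for the fibroblast markers. Results that rest on this array are given with and without it. Among the other lists, the mean of 6 sebaceous markers was 7.49 and 6.88 in K14CREER against 10.68 and 8.96 in InvCREER. That of 9 immune markers was 5.96 and 5.73 against 7.24 and 6.25. Melanocyte markers had means of 6.10 to 6.72 and Schwann and nerve markers of 7.31 to 7.77, with median differences of -0.02 and -0.01. Pericyte and smooth muscle markers had means of 5.58 to 5.98 and cartilage and bone markers of 4.65 to 4.95, with median differences of -0.13 and 0.14.

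Most of the 38 collagen genes gave low signal, the fibrillar ones among them, whose values did not exceed 6.84 on any array. Of the 38, 17 passed the filter and 21 did not. Among 11 fibrillar genes, 4 passed. In the comparison of the Cre lines, limma called 0 of the 27 tested member probe sets after Benjamini-Hochberg adjustment, against 0.959% of all 22519 tested probe sets called. At an unadjusted p under 0.05, limma gave 10 lower in InvCREER and 0 higher, from 6 genes, against 7.35% lower and 6.55% higher over all tested probe sets. The count of calls depended on single arrays, being 2 without InvCREER 1 (Col23a1) and 4 without InvCREER 2 (Col18a1 and Col23a1), and 0 without either K14CREER array. limma without the variance trend also called 0.

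Over all 77 member probe sets, 26 had both InvCREER arrays below both K14CREER arrays and 6 had both above. The shares over all probe sets were 21.0% and 17.5%. The median difference over the 38 genes was -0.11, against -0.02 over all 18193 genes, and 24 of the 38 had a lower mean in InvCREER. Without K14CREER 1 the median was 0.0, with 19 genes lower, and without K14CREER 2 it was -0.22. The shift of this median thus depended on K14CREER 1. Over the 17 genes past the filter the median was -0.30, against -0.01 over all genes past it, with 13 of 17 lower, and without K14CREER 1 it was -0.20. Among these 17 the larger differences were those of Col23a1, Col18a1, Col16a1 and Col4a6, all found in epidermis. These 4 lay lower on the same arrays as the basal keratinocyte markers, whose mean was 12.77 and 12.65 in K14CREER against 12.01 and 11.85 in InvCREER, and the part of that shift in the collagen values was not tested.

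**Figure D1:**
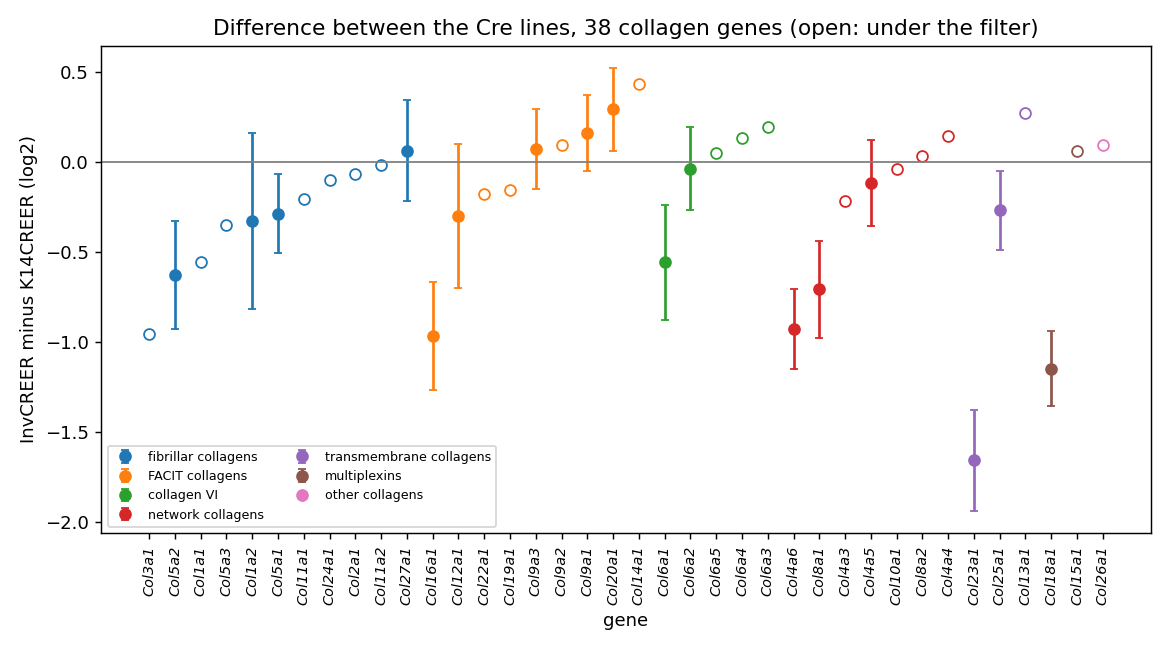
Difference between the Cre lines (InvCREER minus K14CREER, log2) for the 38 collagen genes by class, each on its probe set with the highest mean. Filled points passed the filter and carry the moderated SE, and open points lay under it. Col23a1 at -1.66, Col18a1 at -1.15, Col16a1 at -0.97 and Col4a6 at -0.93 lie lowest among the filled points.

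Among the fibrillar collagens, the major fibre-forming genes of the dermis gave low signal, with the highest values of Col1a1, Col1a2 and Col3a1 on K14CREER 1. Col3a1, the type III chain of dermal fibres, was 6.12 on K14CREER 1, 3.95 on K14CREER 2, 4.43 on InvCREER 1 and 3.73 on InvCREER 2. K14CREER 1 alone lay above the filter value, and the lines overlapped. The difference was -0.96, and it was 0.13 without K14CREER 1 and -2.04 without K14CREER 2. A second Col3a1 probe set was low on all arrays, at 3.55 and 3.39 in K14CREER against 3.31 and 3.24 in InvCREER. It did not share the high value on K14CREER 1, and the lines did not overlap. Col1a2, a chain of type I collagen, was 6.70 and 5.17 in K14CREER against 5.80 and 5.41 in InvCREER. Its difference was -0.33 (SE 0.49, limma adjusted p = 0.874), and without K14CREER 1 it was 0.43. The other Col1a2 probe sets, under the filter, gave 4.77 and 3.84 against 3.90 and 3.62, and 3.37 and 3.62 against 3.28 and 3.24. Col1a1, the other type I chain, was 5.03 and 4.47 in K14CREER against 4.34 and 4.04 in InvCREER, with no overlap but all 4 values under the filter. Its other probe set was 4.24 to 4.55 and overlapped between the lines.

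K14CREER 1 was the highest array for 7 of the 11 fibrillar genes, and for 26.8% of all probe sets. The median difference over the 11 genes was -0.29, and 10 had a lower mean in InvCREER. Without K14CREER 1 these were -0.09 and 6 of 11. Cd34 and 11 of the 14 fibroblast markers were highest on the same array, and their part in the collagen values was not tested. In a sorted bulk sample, fewer cells of a type and less RNA per cell cannot be told apart.

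The type V chains, which start fibrils and set their diameter, had both InvCREER arrays below both K14CREER arrays on the highest probe set of each gene. Col5a1 was 6.25 and 6.17 in K14CREER against 5.88 and 5.97 in InvCREER (-0.29, SE 0.22; limma adjusted p = 0.687). Its other probe sets gave 5.72 and 5.40 against 5.38 and 5.25, and 5.57 and 5.46 against 4.29 and 4.47. The latter, at -1.14, lay under the filter and was not tested. In all 3 Col5a1 probe sets both InvCREER arrays were below both K14CREER arrays, while the size of the difference ran from -1.14 to -0.25.

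Col5a2, the partner chain, was 6.33 and 6.84 in K14CREER against 6.23 and 5.68 in InvCREER (-0.63, SE 0.30; limma adjusted p = 0.440). The lines did not overlap, though InvCREER 1 lay 0.11 below K14CREER 1. Its second probe set, at 4.44 to 4.78, overlapped. Col5a2 is a genomic neighbour of Col3a1, and the high value of Col3a1 on K14CREER 1 was not shared by Col5a2, which was highest on K14CREER 2. Col5a3 was 5.27 and 5.29 in K14CREER against 4.80 and 5.06 in InvCREER, under the filter.

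The remaining fibrillar genes belong mainly to cartilage and other tissues. Col27a1, a fibrillar chain with a short helix, was 6.81 and 6.18 in K14CREER against 6.55 and 6.56 in InvCREER (0.06, SE 0.28; limma adjusted p = 0.972), so that the K14CREER arrays lay on either side of both InvCREER arrays. Col2a1 (cartilage) was 5.19 and 4.85 in K14CREER against 5.10 and 4.79 in InvCREER. Col11a2 (cartilage) was 5.18 and 5.31 in K14CREER against 5.35 and 5.09 in InvCREER. Each of them overlapped between the lines. Col11a1, the partner of Col11a2, was 4.44 on K14CREER 1 and 3.82 to 3.96 elsewhere. Col24a1 was 3.47 and 3.53 in K14CREER against 3.26 and 3.54 in InvCREER.

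**Figure D2:**
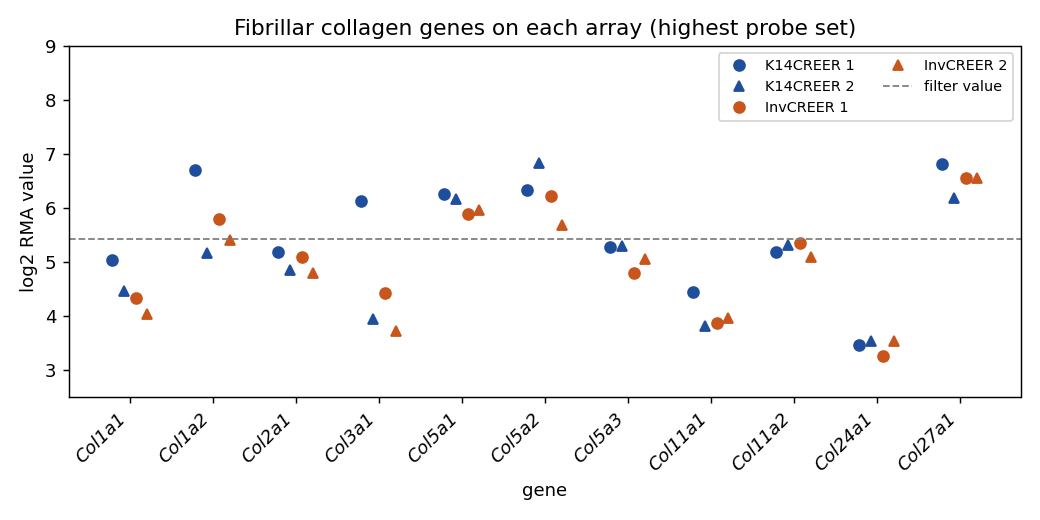
log2 RMA values of the 11 fibrillar collagen genes on each array, with blue for K14CREER, orange for InvCREER, circles for number 1, triangles for number 2 and the filter value of 5.42 as a dashed line. Col3a1 and Col1a2 stand at 6.12 and 6.70 on K14CREER 1, and at 3.73 to 4.43 and 5.17 to 5.80 elsewhere.

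The transmembrane collagen Col23a1 had the lowest difference of the 38 genes. It encodes a short collagen held in the plasma membrane of epithelial cells and is found in epidermis. It was 7.88 and 7.30 in K14CREER (mean 7.59 ± 0.41, SD, n = 2) and 5.89 and 5.97 in InvCREER (5.93 ± 0.06, SD, n = 2). Both InvCREER arrays lay below both K14CREER arrays, with a gap of 1.33. The difference was -1.66 (SE 0.28), a 3.17-fold lower value, with a limma adjusted p of 0.0565. The other probe sets gave 7.58 and 6.89 against 5.76 and 5.20 (-1.76), and 6.87 and 6.20 against 5.45 and 5.40 (-1.11), again without overlap. InvCREER values of all 3 probe sets lay close to the filter value, which limits the size of the difference. Col23a1 was called without InvCREER 1 (limma adjusted p = 0.0417) and without InvCREER 2 (limma adjusted p = 0.0217). Over 12 alternatives its difference ran from -1.95 to -1.37, with a limma adjusted p between 0.0181 and 0.167.

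The other transmembrane members were small in signal. Col25a1, known from neurons, was 6.48 and 6.28 in K14CREER against 6.14 and 6.09 in InvCREER (-0.27, SE 0.22; limma adjusted p = 0.730). Col13a1, a collagen of cell adhesion sites, was 4.87 to 5.45, under the filter on 3 arrays.

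Col18a1 encodes a multiplexin whose core carries heparan sulfate chains and whose C-terminal fragment is endostatin; it lies in the basement membranes of epithelia and vessels. It was 10.82 and 10.46 in K14CREER (10.64 ± 0.26, SD, n = 2) and 9.33 and 9.64 in InvCREER (9.49 ± 0.22, SD, n = 2). The InvCREER arrays lay below the K14CREER arrays by at least 0.81. The difference was -1.15 (SE 0.21), a 2.22-fold lower value, with a limma adjusted p of 0.0693. The second probe set, at 10.36 and 10.28 against 8.92 and 9.31, gave -1.21 (SE 0.21; limma adjusted p = 0.0590). Without InvCREER 2 the difference was -1.31 and was called (limma adjusted p = 0.0132). Over 13 alternatives it ran from -1.33 to -0.97 and the limma adjusted p from 0.0132 to 0.249. Col15a1, the other multiplexin, was 5.44 and 5.03 in K14CREER against 5.28 and 5.32 in InvCREER, under the filter and overlapping.

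Col16a1 was the FACIT member with the lowest difference. It encodes a chain found near the dermal-epidermal junction and in keratinocytes. Its values were 9.70 and 8.98 in K14CREER (9.34 ± 0.51, SD, n = 2) and 8.54 and 8.20 in InvCREER (8.37 ± 0.24, SD, n = 2). The lines did not overlap, but the spread within K14CREER, 0.72, was larger than the gap between the lines, 0.44. The difference was -0.97 (SE 0.30; limma adjusted p = 0.211), and without K14CREER 1 it was -0.61. Its signal comes from 1 probe set.

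RefSeq (GRCm38.p6) promoter sequences are shown for Col18a1 and Col16a1, and for the Col4a6 and Col4a5 pair, because 3 of these 4 genes lay lower in InvCREER without overlap and Col4a5 did not. Each stretch ends at the base before the outermost annotated start of its gene and is written 5′ to 3′ on the strand of the gene. Capitals mark the GC box GGGCGG and the CCAAT box CCAAT on either strand, which can overlap by some bases.
Col18a1, chr10:77166531-77166780, minus strand: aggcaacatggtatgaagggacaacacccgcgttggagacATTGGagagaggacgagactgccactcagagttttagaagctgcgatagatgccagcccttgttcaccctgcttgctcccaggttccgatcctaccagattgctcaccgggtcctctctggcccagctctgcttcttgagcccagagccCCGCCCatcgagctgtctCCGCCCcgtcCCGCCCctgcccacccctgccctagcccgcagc
Col16a1, chr4:130047590-130047816, plus strand: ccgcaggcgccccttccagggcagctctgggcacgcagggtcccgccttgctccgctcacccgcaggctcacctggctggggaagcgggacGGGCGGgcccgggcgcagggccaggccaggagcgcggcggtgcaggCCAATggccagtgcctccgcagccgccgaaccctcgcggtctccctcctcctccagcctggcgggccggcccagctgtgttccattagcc
Col4a6, chrX:141474096-141474326, minus strand: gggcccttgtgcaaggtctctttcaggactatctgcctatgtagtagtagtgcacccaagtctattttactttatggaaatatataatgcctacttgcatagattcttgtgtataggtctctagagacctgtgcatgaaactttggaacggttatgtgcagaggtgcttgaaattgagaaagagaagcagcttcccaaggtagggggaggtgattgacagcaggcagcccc
Col4a5, chrX:141475169-141475369, plus strand: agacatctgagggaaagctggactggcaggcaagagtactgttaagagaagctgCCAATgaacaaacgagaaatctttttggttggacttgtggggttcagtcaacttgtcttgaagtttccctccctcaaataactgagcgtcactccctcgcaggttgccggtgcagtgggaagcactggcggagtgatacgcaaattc
The Col18a1 stretch held 3 GC boxes and 1 CCAAT box, the Col16a1 stretch 1 of each, the Col4a5 stretch 1 CCAAT box and the Col4a6 stretch none of these letters. The G and C content was 62.0% for Col18a1, 75.8% for Col16a1, 45.5% for Col4a6 and 49.8% for Col4a5. Promoters of 29 of the 38 genes were matched. In the 250 bases before the listed start, 18 of the 29 held a GC box, against 32.7% of all 32851 windows of that length. Each member gene gave 1 window, at its outermost start, while the 32851 are all listed windows and not 1 per gene. The shares are therefore of unlike units. A CCAAT box was in 8 of 29, against 33.8%, and the TATA box TATAAA (either strand) in 4 of 29, against 12.4%. A match is a description of letters, not evidence of binding.

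The network collagens Col4a5 and Col4a6 encode the alpha5 and alpha6 chains of type IV collagen, which assemble together in the epidermal basement membrane. Their genes lie head to head on the X chromosome, on opposite strands, as the coordinates above show. Col4a6 was 8.08 and 8.15 in K14CREER (8.12 ± 0.05, SD, n = 2) and 7.17 and 7.19 in InvCREER (7.18 ± 0.01, SD, n = 2). The lines were 0.89 apart at their nearest values. The difference was -0.93 (SE 0.22; limma adjusted p = 0.119), and the second probe set, at 7.53 and 7.31 against 6.63 and 6.54, gave -0.83. Col4a5 was 8.44 and 8.85 in K14CREER against 8.44 and 8.61 in InvCREER (-0.12, SE 0.24; limma adjusted p = 0.912), so that the lines overlapped. Its second probe set overlapped as well, at 6.53 and 6.99 against 6.30 and 6.78.

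The change of Col4a6 against Col4a5 was taken within each array. The log2 value of Col4a6 minus that of Col4a5 was -0.36 and -0.70 in K14CREER against -1.27 and -1.42 in InvCREER. On the highest probe set of each gene, the ratio was thus 0.81 log2 units apart between the lines, without overlap. The 2-sided exact permutation p was 0.333, the smallest that this test can give with 2 against 2 arrays. The second probe sets of Col4a6 and Col4a5 did not repeat this separation. They were 7.31 and 6.99 on K14CREER 2 and 6.63 and 6.30 on InvCREER 1, about equally far apart on both arrays.

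The remaining network members lay near or under the filter. Col8a1, a short chain of endothelial and other basement membranes, was 6.43 and 5.93 in K14CREER against 5.62 and 5.32 in InvCREER (-0.71, SE 0.27; limma adjusted p = 0.312). A second probe set was 6.37 and 5.63 against 5.56 and 4.95 (-0.75), and the third, at 4.21 to 4.40, overlapped. Col4a3 and Col4a4, the type IV chains of kidney glomeruli, Col10a1, of growth plate cartilage, and Col8a2 had means under the filter, and their differences were between -0.22 and 0.14.

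**Figure D3:**
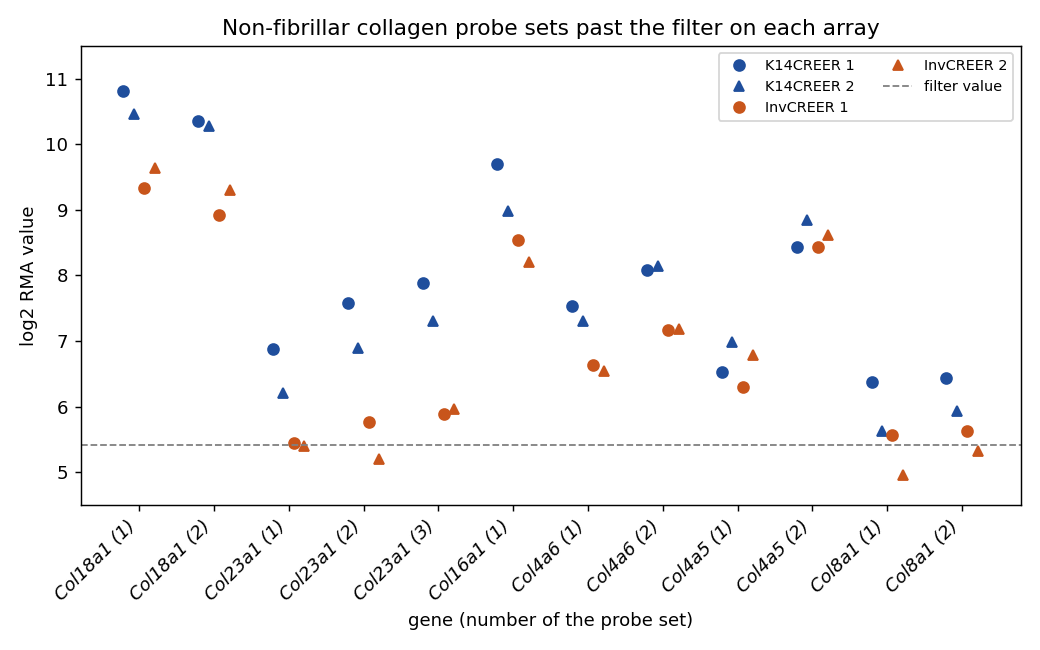
log2 RMA values of the 12 probe sets past the filter for Col18a1, Col23a1, Col16a1, Col4a6, Col4a5 and Col8a1 on each array, with blue for K14CREER, orange for InvCREER, circles for number 1, triangles for number 2 and the filter value of 5.42 as a dashed line. Orange points lie below blue points in every probe set except those of Col4a5, where the lines overlap.

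The FACIT group other than Col16a1 showed no common direction. Col12a1, which links fibrils in dense tissue, was 8.78 and 7.57 in K14CREER against 7.90 and 7.85 in InvCREER (-0.30, SE 0.40; limma adjusted p = 0.855). The high value was again that of K14CREER 1, and without that array the difference was 0.31. Its second probe set past the filter had another pattern, at 6.97 and 7.25 against 6.33 and 6.60 (-0.65, SE 0.25; limma adjusted p = 0.315), where K14CREER 2 was the highest. Col20a1 was 6.16 and 6.21 in K14CREER against 6.61 and 6.34 in InvCREER (0.29, SE 0.23; limma adjusted p = 0.709). Of its 4 probe sets, all had a higher mean in InvCREER, by 0.17 to 0.33. Col9a1 (0.16) and Col9a3 (0.07), chains of cartilage type IX collagen, had limma adjusted p values of 0.853 and 0.955. Col14a1, a FACIT of dermal fibroblasts, was 4.56 and 4.70 in K14CREER against 4.89 and 5.23 in InvCREER, under the filter. Col9a2, Col19a1 and Col22a1 were under the filter too, with differences of 0.09, -0.16 and -0.18.

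Collagen VI, the beaded microfilament collagen of dermis and muscle, was represented by 5 genes. Col6a1 was 7.21 and 6.50 in K14CREER against 6.53 and 6.07 in InvCREER (-0.56, SE 0.32; limma adjusted p = 0.551). K14CREER 1 was the highest array, and K14CREER 2 and InvCREER 1 were 0.03 apart. Without K14CREER 1 the difference was -0.20. Col6a2 was 6.32 and 6.00 in K14CREER against 6.11 and 6.14 in InvCREER (-0.04, SE 0.23; limma adjusted p = 0.979), on a probe set of the kind that is shared between transcripts. Its difference was 0.12 without K14CREER 1. The highest probe sets of Col1a2, Col3a1, Col16a1 and Col18a1, among others, were also of that kind. Without such probe sets the Col3a1 difference was -0.19, against -0.96, and Col16a1 had no value. Col6a3, the third chain of the classical trimer, was 5.31 and 4.92 in K14CREER against 5.45 and 5.17 in InvCREER, under the filter. Col6a4 and Col6a5 differed by 0.13 and 0.05. None of the 7 collagen VI probe sets separated the lines. Col26a1, outside the named classes, was at 0.09 with values of 3.90 to 4.20.

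The 4 collagens left out of the set give the nearest comparison. Col17a1, the transmembrane collagen of hemidesmosomes, was 13.17 and 13.10 in K14CREER against 12.61 and 12.45 in InvCREER (-0.60, SE 0.10; limma adjusted p = 0.0565). Col7a1, the anchoring fibril collagen, was 11.03 and 11.19 against 10.24 and 10.33 (-0.83, SE 0.15; limma adjusted p = 0.0700). These were lower in InvCREER without overlap, as Col18a1, Col23a1, Col16a1 and Col4a6 were. Col4a1, the ubiquitous type IV chain, was 6.45 and 4.70 in K14CREER against 7.03 and 4.89 in InvCREER, and Col4a2 was 5.56 and 4.56 against 6.06 and 4.93. In this neighbouring pair the arrays numbered 1 were above those numbered 2 in each line, and InvCREER 1 was the highest. Col3a1 and Col1a2 were also higher on number 1 in each line, but their highest value was on K14CREER 1. A second Col4a1 probe set, under the filter, was 5.22 and 4.44 in K14CREER against 4.97 and 4.79 in InvCREER, with K14CREER 1 the highest. No test compared the members with these 4 genes.

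Genes that modify and fold collagen in the cell were fixed as a list of 21, of which 20 had a probe set and 16 passed the filter. limma called 0 of the 16, and 10 were lower in InvCREER and 2 higher without overlap, against 24.1% and 21.3% of all genes past the filter. At an unadjusted p under 0.05 limma gave 6 lower and 1 higher, against 7.35% and 6.55% of all tested probe sets. The median difference over the 20 was -0.36, against -0.02 over all genes. P4ha1, the catalytic subunit of prolyl 4-hydroxylase, was 9.50 and 9.29 in K14CREER against 8.02 and 8.28 in InvCREER (-1.25, limma adjusted p = 0.0624). Plod1, a lysyl hydroxylase, was 7.51 and 6.73 against 5.60 and 5.65 (-1.49, limma adjusted p = 0.0916). Serpinh1, the collagen chaperone HSP47, was 9.50 and 9.43 against 8.45 and 7.95 (-1.26, limma adjusted p = 0.0784). These 3 had no overlap between the lines. The more general folding enzymes P4hb and Ppib overlapped, with differences of -0.03 and -0.26. Mia3 (-0.11) and Colgalt2 (0.04) of the same list overlapped as well. P3h4 was higher without overlap, at 10.00 and 10.13 against 10.26 and 10.85 (0.49, limma adjusted p = 0.435). Sec23a, a COPII coat protein, was higher without overlap, at 8.89 and 8.83 against 9.34 and 9.46 (0.54, limma adjusted p = 0.288).

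Of 13 procollagen processing and cross-linking genes, 10 had a probe set, 4 passed the filter and limma called 0, with 3 lower at an unadjusted p under 0.05, where 7.35% of all tested probe sets were. Their median difference was -0.14. Pcolce2, an enhancer of procollagen C-proteinase, was 8.06 and 7.85 in K14CREER against 5.98 and 6.99 in InvCREER (-1.47, limma adjusted p = 0.134). Bmp1, that proteinase, was 8.61 and 8.53 against 8.09 and 7.91 (-0.57, limma adjusted p = 0.315), and Pcolce was at -0.91 (limma adjusted p = 0.166). Lox and Loxl1, the cross-linking oxidases of dermal matrix, lay under the filter.

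Of 10 collagen receptor genes, 9 had a probe set, 5 passed the filter and limma called 0, with 2 lower at an unadjusted p under 0.05, against 7.35% of all tested probe sets. The median difference was -0.20. Those 2 were Itga2 and Itgb1, which together encode the main collagen-binding integrin of keratinocytes. Itga2 was 6.14 and 6.62 in K14CREER against 4.64 and 4.91 in InvCREER (-1.61, limma adjusted p = 0.0540). Itgb1 was 10.26 and 10.68 against 8.82 and 9.15 (-1.48, limma adjusted p = 0.0516). The collagen-binding kinase Ddr1 showed no such gap, at 12.12 and 11.94 against 12.17 and 11.98, and Ddr2 and Mrc2 overlapped too.

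Collagen-degrading enzymes held the only called genes among the 5 lists of collagen-related genes. Of 10, all had a probe set and 6 passed the filter, and limma called 2, both lower, where 0.275% of all tested probe sets were called lower. The median difference over the 10 was -0.53. Mmp13, a collagenase, was 7.29 and 6.47 in K14CREER against 4.59 and 4.21 in InvCREER, and fell by 2.48 (limma adjusted p = 0.0353), with both InvCREER values under the filter value, as for Itga2, which limits the size. Mmp3, stromelysin-1, was 8.19 and 8.55 against 5.68 and 6.17, and fell by 2.44 (limma adjusted p = 0.0230). Without K14CREER 1 neither was called (limma adjusted p = 0.0566 for each), and without K14CREER 2 Mmp3 was not (limma adjusted p = 0.0647). Mmp13 was also not called without the variance trend (limma adjusted p = 0.0570). Ctsl, a lysosomal protease, was at -1.66 (limma adjusted p = 0.0565) and Mmp14, a membrane-bound collagenase, at -0.99 (limma adjusted p = 0.0812). Mmp2, a gelatinase, was 10.56 and 10.73 against 10.72 and 10.69.

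Proteins that coat or bind fibrils were read as 17 genes, of which 9 passed the filter and limma called 0, with 3 lower and 1 higher at an unadjusted p under 0.05, against 7.35% and 6.55% of all tested probe sets. Of the 17, 6 were lower and 6 higher in InvCREER without overlap, against 4092 and 3463 of all 18193 genes. The median difference over the 17 was -0.05. Dcn, the fibril-coating proteoglycan decorin, was 9.50 and 9.07 in K14CREER against 7.09 and 7.75 in InvCREER (-1.87, limma adjusted p = 0.0552), without overlap. Thbs2 was 7.31 and 8.26 against 6.02 and 5.96 (-1.79, limma adjusted p = 0.0796). Fn1, which encodes fibronectin, was also highest on K14CREER 1, at 7.02 on K14CREER 1 and 4.80 to 5.21 on the others. Postn, which encodes the matricellular protein periostin, was 11.67 and 11.78 against 12.01 and 12.01 (0.29, limma adjusted p = 0.341). Aspn, the proteoglycan asporin, was higher without overlap, at 4.21 and 3.69 against 5.40 and 4.75 (1.12), but under the filter and not tested. Lum and Dpt, which encode lumican and dermatopontin, lay at 3.91 to 4.38 on all 4 arrays.

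**Figure D4:**
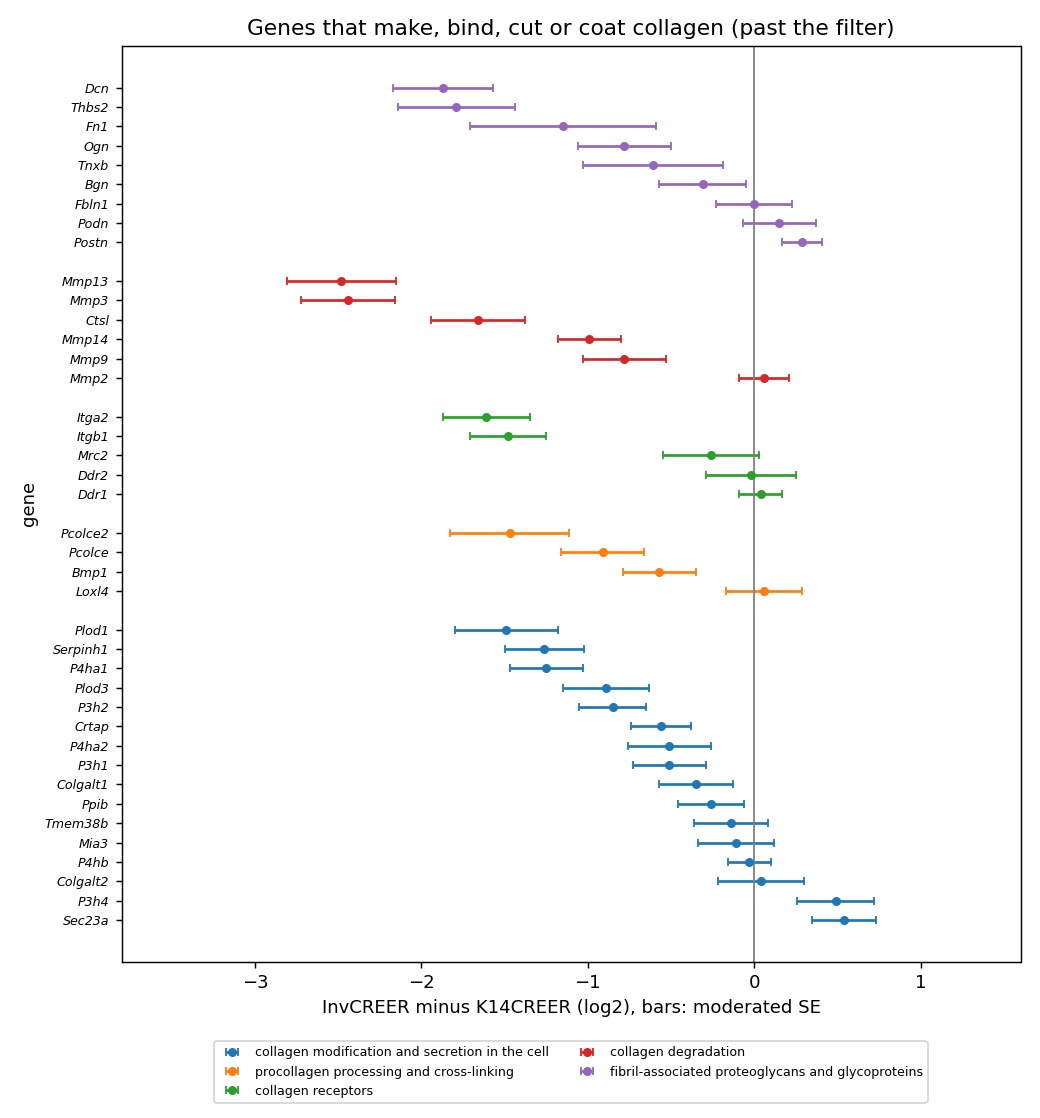
Difference between the Cre lines (InvCREER minus K14CREER, log2, with moderated SE) for the genes past the filter in the 5 lists that modify, process, bind, degrade or coat collagen. Mmp13 at -2.48 and Mmp3 at -2.44 lie lowest and are the 2 called genes, while P4hb, Ddr1, Mmp2 and Fbln1 lie within 0.06 of 0.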

How the data were processed

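Expression was measured on 1 Affymetrix array per sample, with 100 ng of total RNA amplified from its 3' end, per the labels' protocols. The deposited values are log2 probe set values. The authors used RMA and version 1.1 of Affymetrix Expression Console, according to the submitters' processing notes. Since RMA equalises the distributions of the arrays, changes in total RNA are not visible. Detection calls were not used here, and the number of arrays limits the precision.

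Of 45101 probe sets, 64 controls were set aside. Probe sets with a mean of at least 5.42, the median of the other 45037, were tested, 22519 in all. Gene names came from the platform annotation: 34945 probe sets had 1 symbol, 932 several and 9160 were unnamed here. The lines were compared 2-sided with limma 3.58.1 (R 4.3.3), using lmFit and eBayes with the trend option and no block. The threshold was a p under 0.05 after Benjamini-Hochberg adjustment over all tested probe sets. Promoters came from a RefSeq table (GRCm38.p6).

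The members and gene lists were chosen with earlier results of these data known, so that no list was tested as a set. Named were all fibrillar genes, members past the filter or with a difference of at least 1 without overlap, and from each list the called genes and up to 4 others with a high mean; further genes of the lists were named after their values were seen. On simulated data of the 22519 probe sets, 76% of 200 changes of 2 log2 units were recovered and 0% of 200 changes of 1. With only 200 probe sets changed, changes of 1 were thus missed. In the data themselves some changes of such size were called, as for Krt10 at 0.71 and Krt1 at 1.29. The share missed there is not known. Alternatives covered filter, variance model, scaling, replicate block, arrays left out, probe set choice and unit of testing.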

Additional observations from a re-analysis of the deposited data

How the results depend on the processing

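Of 24 single-gene collagen results, 270 of 289 alternative values kept their direction or stayed within the spread between arrays. Where a p was given, they also stayed on the same side of the threshold. Some of the 270 were fixed in advance, namely those of fibrillar genes under the filter in settings that change only the testing. There the stricter filter, the variance trend, the replicate block and 1 probe set per gene could not move the difference, and no p was given. Another 13 became called. The sign changed in 12 of the 289 values, from 10 genes, none of which had been called. In 5 of the 12 the gene was tested: with 1 array left out, Col12a1 ran from -0.91 to 0.31, Col1a2 from -1.10 to 0.43, Col6a2 from -0.19 to 0.12, Col27a1 from -0.26 to 0.37 and Col4a5 from -0.32 to 0.08. The sign changed without K14CREER 1 for the former 3 and without K14CREER 2 for the latter 2. The other 7 sign changes were in fibrillar genes under the filter, the highest being 0.13 for Col3a1 without K14CREER 1. These 7 are counted among the 270, because they stayed within the spread between arrays. That spread came from the same 4 arrays, so that an outlying array, such as K14CREER 1 for Col3a1, widened it. The value of Col5a3 moved to -0.18 with the mean of its probe sets. The number of collagen probe sets called was 0 in the main analysis, 2 at the stricter filter, 2 with 1 probe set per gene and 0 to 4 with 1 array left out. Over all probe sets, 216 were called, 405 at the stricter filter, 122 without the variance trend, 551 with 1 probe set per gene and 82 to 981 with 1 array left out. Equal replicate numbers are not said to mark a shared animal or day, and with 2 numbers the correlation of their deviations, 0.38 over probe sets, does not settle a pairing. With the replicate block, 1390 probe sets and 6 collagen probe sets were called, the latter of Col16a1, Col18a1, Col23a1 and Col4a6. The median over collagen genes was -0.22 to 0.0 with 1 array left out, against -0.11. Over those past the filter it was -0.30 (17 genes), and -0.11 without a filter (38 genes). It was -0.64 at the stricter filter (4 genes) and -0.47 with the mean of probe sets (12 genes), so that these medians are of different genes. For fibrillar genes it was -0.09 to -0.34 with 1 array left out and -0.18 with the mean of probe sets, against -0.29, and 6 to 10 of 11 genes had lower means, counts added after seeing the data. The cause of these shifts was not tested. Fewer probe sets entered the fit at the stricter filter and with 1 per gene. Low signal limits 21 of the 38 genes, whose means lay under the filter value.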
